A study of Mus musculus with 12 samples.

Results

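The genes described here encode 7 subunits of voltage-gated sodium channels: Scn4b, Scn2b and Scn3b, which encode beta subunits, and Scn1a, Scn2a, Scn3a and Scn8a, which encode alpha subunits. Members were the probe sets that the array's gene table pairs with 1 of these genes alone, which gave 20 of the 45037 probe sets tested and 7 of the 18193 genes with a probe set of their own. Each gene was represented by its brightest probe set, the one with the highest mean over all 12 arrays. RNA came from the striatum of 12 mice on the C57BL/6 background, each hybridised to its own Affymetrix expression array, on which a probe set is a group of short probes for 1 transcript. Q92 mice carry HdhQ92/Q92, a knock-in that puts 92 CAG repeats from the first exon of the human Huntington's disease gene into Htt (older symbol Hdh), the mouse counterpart. The allele sits in the endogenous gene, so it is not limited to the striatum or to a cell type, and the controls are wild-type mice. There were 3 wild-type (wt_3m) and 3 Q92 mice (Q92_3m) of 100 to 103 days, called 3 months. At 18 months there were 3 wild-type mice of 596 to 604 days (wt_18m) and 3 Q92 mice of 567 to 596 days (Q92_18m). Both Q92 groups and the wild-type group at 18 months held 2 females and 1 male, and the wild-type group at 3 months held 1 female and 2 males. Mice are named by group and animal number.

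Voltage-gated sodium channels open on depolarisation and carry the inward current that starts and spreads the action potential. The large alpha subunit forms the pore and its gates, and the small beta subunits, which cross the membrane once, change gating, surface level and cell adhesion. The beta subunit encoded by Scn4b is abundant in the GABAergic projection neurons that make up most of the striatum, and its cytoplasmic tail can block the open channel and give rise to resurgent sodium current.

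The arrays correlated with each other at 0.983 to 0.995, and wt_3m_467 and Q92_18m_66 had the lowest mean correlation with the others (0.987 and 0.988). Of 23 listed marker genes of striatal projection neurons 22 could be read, which does not by itself check the labelled tissue. Markers of neighbouring tissue varied between mice and are given below. Htt, which carries the knock-in, differed by 0.10 (SE 0.10, adjusted p = 0.883) at 18 months and by 0.30 (SE 0.10, adjusted p = 1.00) at 3 months. All signals are on the log2 scale, a difference subtracts wild type from Q92 mice of 1 age or the young from the aged mice of 1 genotype, and p-values are from limma, adjusted over the 45037 probe sets of a comparison.

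Scn4b was the sodium channel gene with the lowest value in aged Q92 striatum relative to its other groups, and it was the only one of the 7 called in any comparison. Its single probe set, 1434008_at, read 11.42, 11.73 and 11.88 in the wild-type mice at 3 months and 11.46, 11.65 and 11.88 in the Q92 mice of that age. At 18 months it read 11.11, 11.25 and 11.31 in wild-type mice and 9.12, 9.81 and 10.32 in Q92 mice. The aged Q92 mice thus lay below all 9 other mice, the aged wild-type mice lay just below all 6 young mice, and the young groups were interleaved. In order, the group means were 11.68 ± 0.24 (SD, n = 3) in young wild-type mice, 11.66 ± 0.21 in young Q92 mice, 11.23 ± 0.10 in aged wild-type mice and 9.75 ± 0.60 in aged Q92 mice, whose spread was the widest of the 4 groups.

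**Figure D1:**
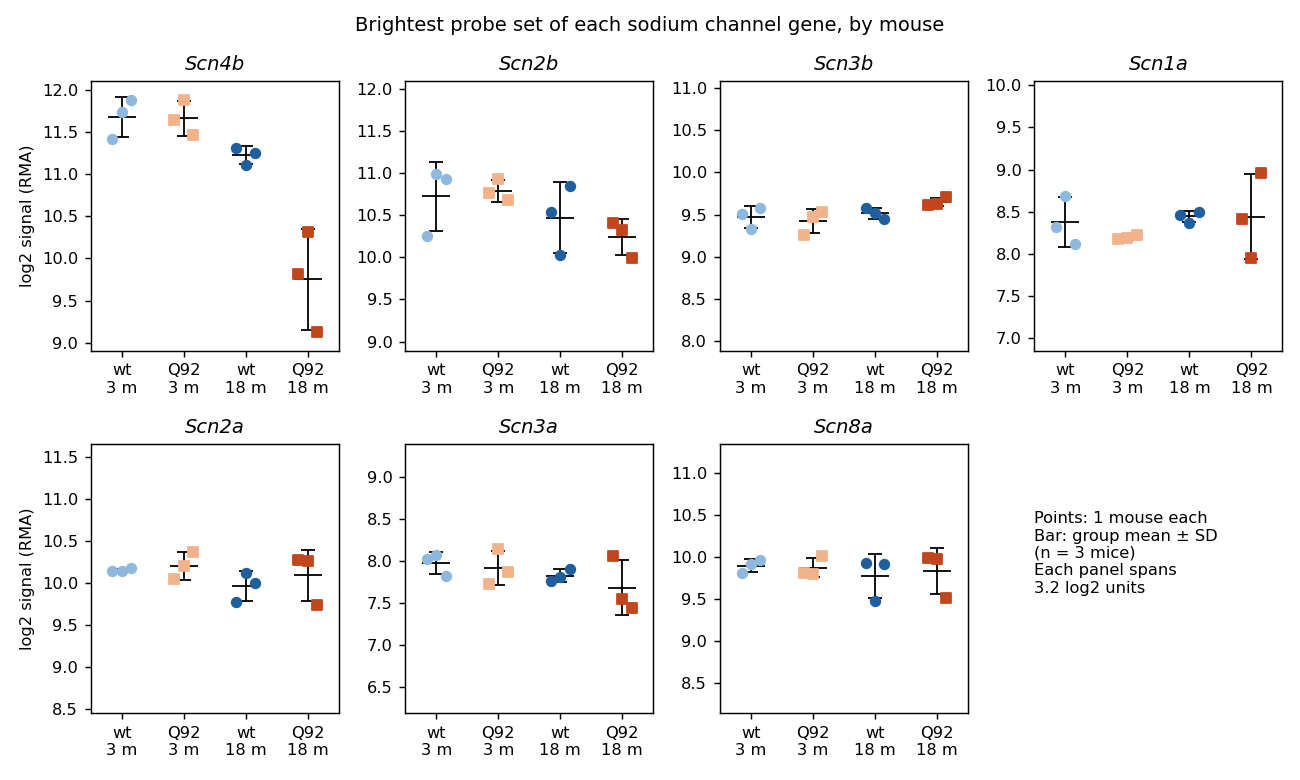
Log2 signal of the brightest probe set of each of the 7 genes (vertical axis, 3.2 log2 units in every panel) in the 4 groups (horizontal axis; m, months), with 1 point per mouse and bars for the mean ± SD of 3 mice. In the Scn4b panel the 3 aged Q92 mice sit between 9.12 and 10.32, below every other mouse, while the groups of the other genes lie close together.

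In Q92 mice between 3 and 18 months Scn4b fell by 1.91 on the log2 scale (SE 0.24, 95% confidence interval -2.42 to -1.40, adjusted p = 0.0123), a 3.76-fold decrease. It was the only member called in this comparison, in which 0.206% of all probe sets were called (93 of 45037, 74 of them lower). The call ended without Q92_3m_439 (log2 difference -1.92, adjusted p = 0.0590), without Q92_3m_440 (-1.80, 0.0919), with age in days as a covariate (-1.95, 0.0543) and with only the 6 arrays compared (-1.91, 0.0651). It held without the 2 arrays of lowest correlation (log2 difference -1.60, adjusted p = 0.0156).

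In wild-type mice over the same interval Scn4b differed by -0.45 (SE 0.24, 95% confidence interval -0.96 to 0.06, adjusted p = 0.526). The 3 aged wild-type mice did not overlap the 3 young ones, as was true, in the lower direction, of 9.40% of all probe sets in this comparison. No member was called there, against 0.0511% of all probe sets.

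At 18 months Scn4b differed between Q92 and wild-type mice by -1.48 (SE 0.24, 95% confidence interval -1.99 to -0.97), a 2.78-fold lower signal, and its adjusted p of 0.0557 missed the threshold. None of the 7 members was called in this comparison, in which 0.0533% of all probe sets were (24 of 45037). Among 18193 genes Scn4b had rank 7 from the most negative difference and rank 16 from the smallest p. The adjusted p moved to the other side of 0.05 in 7 of 25 alternative settings: without Q92_18m_25 (difference -1.76, adjusted p = 0.00999), with quantile normalisation (0.0416), array weights (0.0345), cortical and thalamic marker genes as covariates (-1.67, 0.00439), without the 2 arrays of lowest correlation (-1.16, 0.0415), and with 1 row per gene by the mean (0.0264) or the brightest probe set (0.0307). The adjusted p was highest with age in days as a covariate (-1.55, SE 0.36, adjusted p = 0.493) and without wt_18m_9 (-1.43, 0.212). It was 0.189 with the 18S control signal as a covariate (-1.26) and 0.174 with only the arrays compared (-1.48). Over all 25 settings the difference ran from -1.76 to -1.16, and without Q92_18m_66, the mouse with the lowest signal, it was -1.16 (adjusted p = 0.0594).

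Sex and age in days were not balanced over the groups, and the values within each are few. Among females at 18 months Scn4b averaged 9.72 in 2 Q92 and 11.28 in 2 wild-type mice, a difference of -1.56, and the single male pair differed by -1.30. At 596 days the single Q92 mouse, which is also the male, read 9.81 and the 2 wild-type mice averaged 11.18, a difference of -1.37. A single Q92 mouse gives no spread, and neither of these values was tested.

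At 3 months the difference of Scn4b was -0.02 (SE 0.24, 95% confidence interval -0.53 to 0.49, adjusted p = 1.00), with overlapping groups. No member was called, against 0.0111% of all probe sets. The genotype difference changed by -1.46 with age (SE 0.33, 95% confidence interval -2.18 to -0.74), which did not pass (limma, adjusted p = 0.657). In that comparison limma called 0 probe sets (0%), and 2335 (5.18%) had an unadjusted p under 0.05.

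Scn4b has its nearest protein-coding neighbour within the family: in the RefSeq gene table Scn2b lies directly beside it on chromosome 9, in the same orientation. The sequences just upstream of both genes are shown because the neighbours had unlike values in aged Q92 mice. They are the 250 bases before each RefSeq start site on the plus strand of GRCm38.p6, chr9:45138374-45138623 for Scn4b and chr9:45117626-45117875 for Scn2b, with CpG dinucleotides in capitals.
Scn4b: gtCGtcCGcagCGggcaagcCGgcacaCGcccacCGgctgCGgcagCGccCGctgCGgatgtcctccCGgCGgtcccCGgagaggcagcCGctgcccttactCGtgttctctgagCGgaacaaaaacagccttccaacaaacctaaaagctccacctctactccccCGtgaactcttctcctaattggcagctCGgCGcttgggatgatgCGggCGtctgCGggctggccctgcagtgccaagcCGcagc
Scn2b: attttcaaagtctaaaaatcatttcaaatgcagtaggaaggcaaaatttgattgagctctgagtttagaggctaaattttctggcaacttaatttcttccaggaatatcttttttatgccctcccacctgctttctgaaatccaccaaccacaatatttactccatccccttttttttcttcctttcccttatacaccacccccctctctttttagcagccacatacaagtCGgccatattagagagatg
The Scn4b window holds 23 CpGs and 66% G and C, and the Scn2b window holds 1 CpG and 38.4% G and C. Among 32851 such windows the median was 6 CpGs and 52.4% G and C, and 88.0% had no more CpGs than Scn4b. A CpG-rich window was not particular to Scn4b among the members. The 2 windows of Scn8a held 30 and 9 CpGs (68% and 53.2% G and C), and Scn8a differed by 0.05 between genotypes at 18 months. The windows of Scn2a held 2 and 9 CpGs and that of Scn1a held 4. Any link between CpG content and signal was not tested. Of 5 motifs searched on both strands, the Scn4b window had 1 match, to the CCAAT box (CCAAT, in 33.8% of all windows), and the Scn2b window had none. The other motifs were the Sp-family GC box (GGGCGG, 32.7% of windows), the TATA box (TATAAA, 12.4%), an EGR site (GCGNGGGCG, 4.70%) and the cAMP response element (TGACGTCA, 1.55%). These motif results are matches of letters in 1 window for each of the neighbours and carry no measurement from these mice.

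Scn2b encodes the beta subunit that, like that of Scn4b, is held to the alpha subunit by a disulfide bond. At its brightest of 3 probe sets, 1430648_at, it read 10.25, 10.93 and 10.99 in young wild-type, 10.68, 10.76 and 10.93 in young Q92, 10.03, 10.54 and 10.85 in aged wild-type, and 9.99, 10.33 and 10.41 in aged Q92 mice. The aged groups overlapped, and the aged Q92 mice lay below the young Q92 mice. The difference was -0.23 between genotypes at 18 months (SE 0.22, 95% confidence interval -0.71 to 0.25, adjusted p = 0.874) and -0.55 between ages in Q92 mice (SE 0.22, 95% confidence interval -1.02 to -0.07, adjusted p = 0.404). The genotype difference was -0.45 without wt_18m_12 and -0.04 without wt_18m_17.

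The second Scn2b probe set, 1436134_at, was lower at 18 than at 3 months in both genotypes. It averaged 9.91 ± 0.17 and 9.55 ± 0.05 in young and aged wild-type mice, which did not overlap, and 9.78 ± 0.19 and 9.55 ± 0.04 in young and aged Q92 mice. Its age difference was -0.37 in wild-type mice (SE 0.11, adjusted p = 0.318) and -0.23 in Q92 mice (SE 0.11, adjusted p = 0.508), and its genotype difference at 18 months was 0.0020 (SE 0.11, adjusted p = 0.999). A long non-coding RNA gene, Gm10684, overlaps Scn2b in the RefSeq table, and which transcript a probe set reads was not tested.

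Scn3b encodes a beta subunit that binds the alpha subunit without a covalent bond. Its brightest probe set, 1435767_at, read 9.45, 9.52 and 9.58 in aged wild-type and 9.62, 9.63 and 9.71 in aged Q92 mice, so the Q92 mice lay just above all 3 controls. The gap was small, at 0.14 (SE 0.10, 95% confidence interval -0.08 to 0.35, adjusted p = 0.809). The young mice read 9.33 to 9.58 (wild type) and 9.26 to 9.53 (Q92), and the age difference in Q92 mice was 0.23 (SE 0.10, adjusted p = 0.442). A dimmer Scn3b probe set, 1426328_a_at, had the same sign at 18 months, 0.10 (SE 0.14, adjusted p = 0.929), with overlapping groups.

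Of the alpha subunits, Scn2a encodes the main channel of unmyelinated axons and of the proximal axon initial segment. Its brightest probe set, 1427280_at, read 9.77, 9.996 and 10.12 in aged wild-type and 9.74, 10.26 and 10.27 in aged Q92 mice. The groups overlapped, and the difference was 0.13 (SE 0.15, 95% confidence interval -0.19 to 0.44, adjusted p = 0.906). All 4 Scn2a probe sets had a positive difference, from 0.13 to 0.21, and none was called. In wild-type mice 1427280_at was lower in aged mice than the 10.14, 10.14 and 10.17 of the young mice, without overlap, a difference of -0.19 (SE 0.15, adjusted p = 0.656).

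Scn8a encodes the alpha subunit of nodes of Ranvier and of the distal axon initial segment, and it carries much of the resurgent current of neurons that have one. At 1423515_at it read 9.48, 9.92 and 9.93 in aged wild-type and 9.52, 9.98 and 9.99 in aged Q92 mice, with 1 low mouse in each group (wt_18m_12 and Q92_18m_66). The difference was 0.05 (SE 0.15, 95% confidence interval -0.27 to 0.38, adjusted p = 0.973). Its 5 probe sets did not run one way. At 1439889_at the aged Q92 mice read 7.36, 7.46 and 7.63 and the aged wild-type mice 7.70, 7.77 and 7.88, which did not overlap (difference -0.30, SE 0.10, adjusted p = 0.453). That probe set also separated the genotypes at 3 months, by -0.18 (SE 0.10, adjusted p = 1.00), whereas the other 4 Scn8a probe sets differed by 0.05 to 0.21 at 18 months.

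Scn1a, the alpha subunit gene prominent in parvalbumin interneurons, was the member whose probe sets differed most from each other in the genotype difference at 18 months. At the brightest, 1450121_at, the aged Q92 mice spread from 7.95 to 8.96 around the aged wild-type mice (8.37, 8.46 and 8.50), a difference of -0.0073 (SE 0.20, 95% confidence interval -0.45 to 0.44, adjusted p = 0.999). Its highest value, 8.96, was in Q92_18m_66. At 1450120_at the aged Q92 mice read 6.44, 6.46 and 6.61, above the 5.82, 5.84 and 6.11 of aged wild-type mice, a difference of 0.58 (SE 0.23, adjusted p = 0.555). At 1441728_at they read 6.09, 6.25 and 6.39 against 5.60, 5.65 and 5.90, a difference of 0.53 (SE 0.24, adjusted p = 0.631). Both dimmer probe sets were thus higher in aged Q92 mice without overlap, neither was called, and the mean of all 3 gave 0.37 (adjusted p = 0.667).

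Scn3a, best known from the developing brain, read 7.76, 7.80 and 7.91 in aged wild-type and 7.44, 7.55 and 8.06 in aged Q92 mice at 1439204_at. The wild-type values lay within the range of the Q92 mice, and the difference was -0.14 (SE 0.15, 95% confidence interval -0.47 to 0.19, adjusted p = 0.902). The other Scn3a probe set, 1421705_at, averaged 2.90 over all mice. It was among 4 of the 20 member probe sets under the median probe set mean of 4.98, where an array can show little change.

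**Figure D2:**
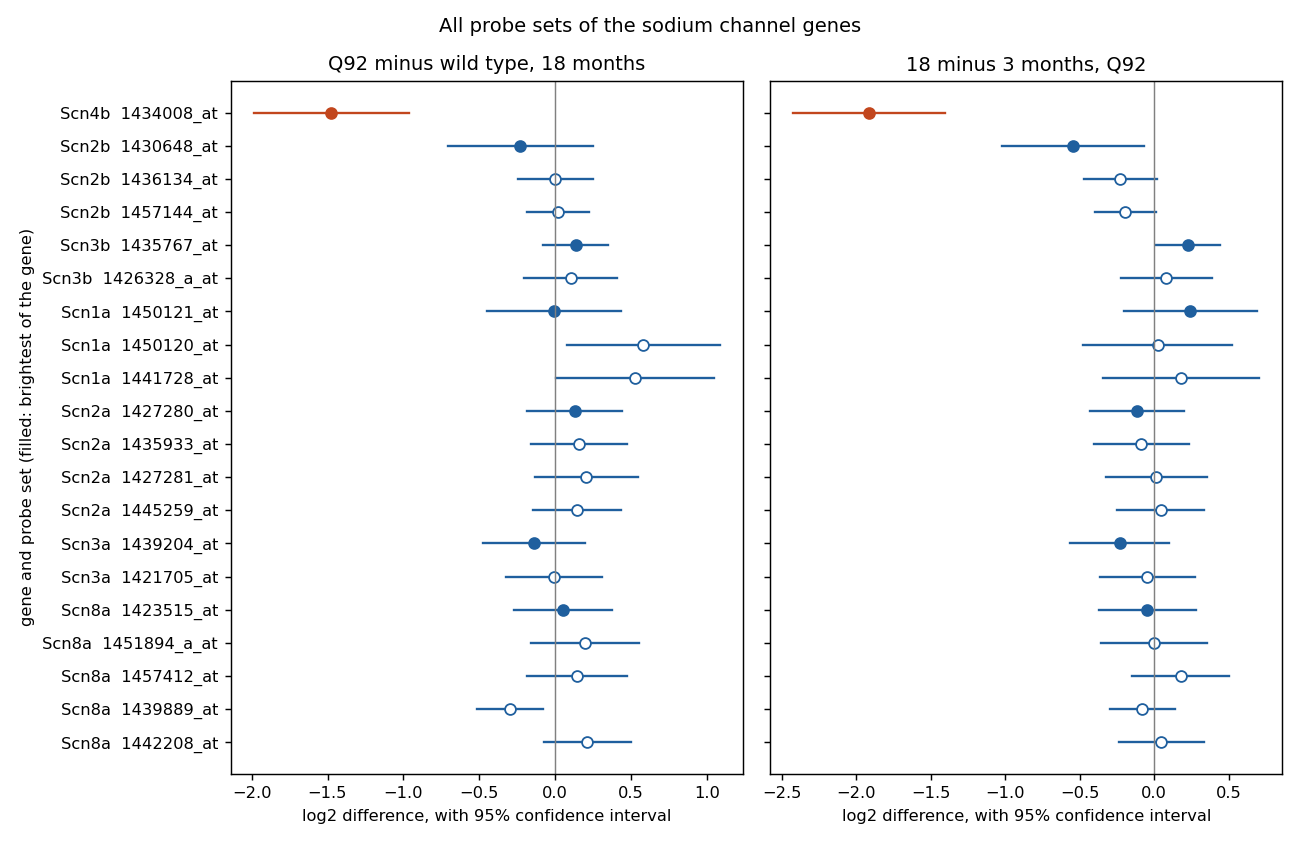
Log2 difference (horizontal axis) with its 95% confidence interval for all 20 probe sets (vertical axis; filled points mark the brightest of a gene, red marks Scn4b), for Q92 minus wild type at 18 months on the left and 18 minus 3 months in Q92 on the right. Scn4b, at -1.48 and -1.91, stands left of every other probe set, whose differences run from -0.30 to 0.58 on the left.

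Over the 6 other members the brightest probe sets differed by -0.23 to 0.14 between genotypes at 18 months, 3 below and 3 above 0, with a median of 0.02, and the median of all genes was -0.0014. Their confidence intervals reached no lower than -0.71, and that of Scn4b reached no higher than -0.97. Each interval rests on 1 spread shared by the 4 groups, whereas the SD of Scn4b was 0.60 in aged Q92 and 0.10 in aged wild-type mice. The interval of Scn4b may therefore be too narrow, and none with unequal spread was computed. Of the 20 probe sets, 2 were lower and 3 higher without overlap between genotypes at 18 months (Scn4b and 1 of Scn8a, and 1 of Scn3b and 2 of Scn1a), where 6.76% of all probe sets were lower and 7.02% higher without overlap, 13.8% together. At 3 months 1 of the 20, of Scn8a, was lower without overlap, against 4.35% of all probe sets (6.85% in either direction). In the age comparisons 4 of 20 did not overlap in wild-type mice and 4 in Q92 mice, against 16.9% and 15.4%. In Q92 mice these were 3 lower (Scn4b and 2 of Scn2b, where 7.62% of all probe sets were lower without overlap) and 1 higher (Scn3b, 7.83%), and in wild-type mice all 4 were lower (Scn4b, 2 of Scn2b and 1 of Scn2a, where 9.40% of all probe sets were lower without overlap).

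Within an array, the signal of Scn4b minus the mean of the other 6 members was set against its mean in young wild-type mice. This gap was -0.17 to 0.21 in young wild-type mice, -0.24 to 0.18 in young Q92 mice, -0.43 to -0.27 in aged wild-type mice, and -1.21, -1.90 and -2.35 in aged Q92 mice. Relative to young wild-type mice the gap was thus lowest in the 3 aged Q92 mice, so Scn4b stood less far above its relatives there. The 3 aged wild-type mice lay just below the young ones. In wild-type mice the ages did not overlap against Scn3b and Scn1a but overlapped against each of the other 4 relatives. The gap differed by -1.47 between genotypes at 18 months and by 0.02 at 3 months. Against single relatives the 18-month difference ran from -1.24 (Scn2b) to -1.61 (Scn3b), and the aged groups did not overlap for any of the 6. A ratio within an array shows unequal change and does not show that the relatives were unchanged.

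Scn4b was next set beside other markers of striatal projection neurons. In bulk tissue, fewer cells of a type and less RNA per cell cannot be told apart. All 22 measured markers had lower means in Q92 mice at 18 months, with a median difference of -0.75, from -0.22 (Tac1) to -1.26 (Penk). Of these 1 (Penk) was called, against 0.0533% of all probe sets. None had a larger decrease than Scn4b in this comparison or between ages in Q92 mice. Between ages 5 were called (Rgs9, Pde1b, Penk, Arpp21 and Rgs14), against 0.206% of all probe sets, and the most negative difference was -1.30. This list was written with earlier results of these data known, and Ryr1, which is not on it, differed by -1.70 at 18 months (adjusted p = 0.0144).

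**Figure D3:**
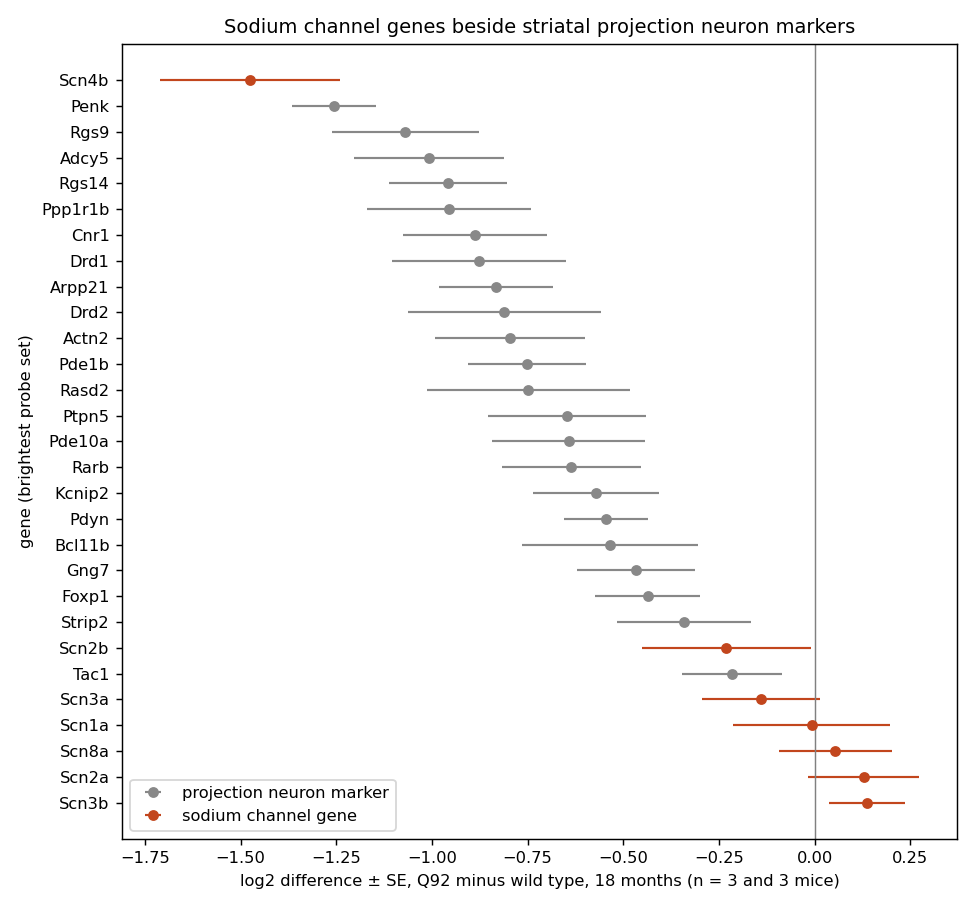
Log2 difference ± SE between Q92 and wild-type mice at 18 months (horizontal axis, n = 3 and 3) of the 7 sodium channel genes (red) and 22 striatal projection neuron markers (grey), ordered by difference (vertical axis). Scn4b, at -1.48, stands at the negative end beyond Penk, and the other 6 sodium channel genes lie at the other end, between -0.23 and 0.14, next to Tac1 at -0.22.

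The mean of these markers, relative to the 12-array mean, was -0.31 in Q92_18m_25, -0.44 in Q92_18m_11 and -0.96 in Q92_18m_66, and 0.06 to 0.40 in the other 9 mice. Scn4b had the same order among the aged Q92 mice, at -0.76, -1.27 and -1.95 relative to its own mean. After the marker mean was subtracted, Scn4b was at -0.46, -0.83 and -0.99 in these 3 mice, between -0.05 and 0.02 in aged wild-type mice, and between 0.27 and 0.47 in the 6 young mice. After this subtraction the genotypes differed by -0.75 at 18 months and by -0.02 at 3 months. The markers themselves differed by -1.26 to -0.22 at 18 months, so the same subtraction would also leave Penk, the lowest, below 0. The value states only that Scn4b differed more than the mean of the list.

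**Figure D4:**
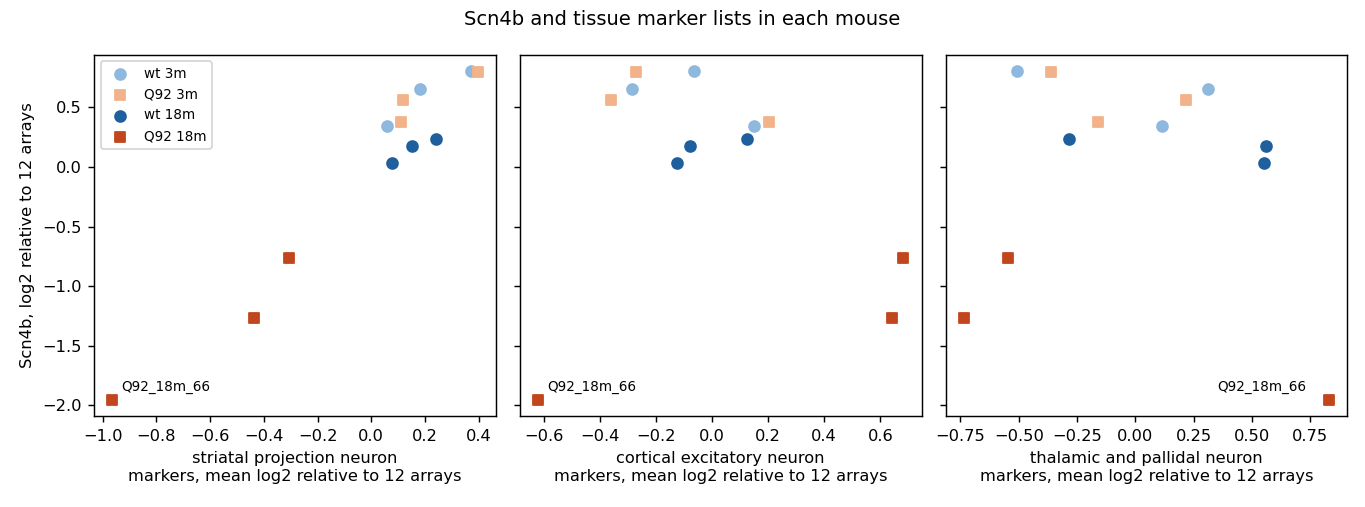
Scn4b (vertical axis) against the mean of marker genes for striatal projection neurons, cortical excitatory neurons and thalamic and pallidal neurons (horizontal axes), all as log2 relative to the mean of 12 arrays, with 1 point per mouse. The aged Q92 mice are lowest for Scn4b and for projection neuron markers alike, whereas for cortical and thalamic markers Q92_18m_66 stands at the opposite end from the other 2.

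Markers of neighbouring tissue split the aged Q92 mice. The 14 measured cortical markers averaged 0.68 in Q92_18m_25 and 0.64 in Q92_18m_11 but -0.62 in Q92_18m_66, against -0.12 to 0.13 in aged wild-type mice. The 12 thalamic and pallidal markers averaged -0.55, -0.74 and 0.83 in the same order, against -0.28 to 0.56. Scn4b was low in all 3, and its 18-month difference was -1.67 (adjusted p = 0.00439) with both marker means as covariates. For Scn1a, whose highest value at 1450121_at was in Q92_18m_66, the same covariates gave 0.15 (adjusted p = 0.812), and the part of neighbouring tissue in its values was not tested further. General neuronal markers were at 0.09 to 0.15 in aged Q92 and -0.05 to 0.09 in aged wild-type mice, with a median difference of 0.08 over 10 genes. The lists for interneurons, glia, vessels and choroid plexus had medians from -0.23 (astrocytes and microglia) to -0.13 (oligodendrocytes). None of their genes was called at 18 months, against 0.0533% of all probe sets. The choroid plexus and ependymal score stood apart in 2 mice, at 1.68 in wt_18m_12 (-0.83 and -0.58 in the other aged wild-type mice) and 1.73 in Q92_3m_439 (-0.51 and -0.25 in the other young Q92 mice), and was -0.34 to 0.51 in aged Q92 mice. In wt_18m_12 Scn4b (11.11), Scn2b (10.03), Scn1a (8.37) and Scn8a (9.48) had the lowest values of the aged wild-type group. Scn2a (10.12) had the highest there, and Scn3b (9.52) and Scn3a (7.80) lay between. Without wt_18m_12 Scn4b differed by -1.53 at 18 months (adjusted p = 0.113). In Q92_3m_439 Scn4b (11.65), Scn2b (10.76) and Scn8a (9.81) lay between the other young Q92 mice. Scn3b, Scn1a, Scn2a and Scn3a were lowest of that group in Q92_3m_439. The part of cell makeup in the values of Scn4b was not tested.

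The 18S ribosomal RNA control probe sets averaged 5.98 in Q92_18m_25, 6.91 in Q92_18m_11 and 7.58 in Q92_18m_66, against 5.75 to 5.93 in aged wild-type mice, so they ran opposite to Scn4b among the aged Q92 mice. Among young mice the 18S signal was 8.60 in Q92_3m_466, 7.71 in wt_3m_438, 6.63 in Q92_3m_440, 6.43 in Q92_3m_439, 6.38 in wt_3m_436 and 5.64 in wt_3m_467. In the same order Scn4b read 11.46, 11.73, 11.88, 11.65, 11.42 and 11.88. With the 18S signal as a covariate the difference of Scn4b at 18 months was -1.26 (adjusted p = 0.189), and the age difference in Q92 mice was -2.00 (adjusted p = 0.00400).

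Genes with the pattern most like that of Scn4b were ranked by Pearson's r over the 12 arrays among 11206 genes with a signal above the median. The first 5 were Rgs9, a striatal regulator of G protein signalling (0.981), Ryr1, an intracellular calcium release channel (0.980), Ppp2r2a, a regulatory subunit of protein phosphatase 2A (0.980), Arpp19, a phosphoprotein that inhibits this phosphatase (0.978), and the sialyltransferase gene St8sia3 (0.976). The aged Q92 mice stand apart from the rest in this measure, and over the 9 other mice r was 0.66 to 0.85 for these 5 genes. After each group's mean was subtracted, the first 5 were Rgs9 (0.97), Ppp1r1b, which encodes DARPP-32 (0.96), Penk (0.96), Arpp19 (0.95) and the calcineurin subunit gene Ppp3r1 (0.95). The subtraction leaves the differences among the aged Q92 mice in place, where Scn4b spread most (SD 0.60, against 0.10 to 0.24 in the other groups). Over the 9 other mice, without subtraction, r was 0.46 for Ppp1r1b, 0.74 for Rgs9, 0.81 for Penk, 0.84 for Arpp19 and 0.89 for Ppp3r1. The relatives of Scn4b stood lower over the 12 arrays, at rank 567 for Scn2b (r = 0.72), 1128 for Scn3a (0.54), 2372 for Scn8a (0.30), 2478 for Scn2a (0.29), 8460 for Scn1a (-0.44) and 10426 for Scn3b (-0.69). Over the 9 mice without the aged Q92 group, r was 0.75 for Scn2b, as high as for Rgs9 (0.74), and -0.37 to 0.41 for the other 5. After group means were subtracted it was 0.61 for Scn8a, 0.59 for Scn2b, 0.50 for Scn2a, 0.20 for Scn3a, -0.16 for Scn3b and -0.77 for Scn1a. These coefficients describe 12 arrays and carry no test.

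Other genes that act with sodium channels were taken from 7 lists of 62 genes, 53 of them measured. None was called in any of the 5 comparisons, in which 0% to 0.206% of all probe sets were called. Their median difference at 18 months was 0.0021, with 26 of 53 lower, beside 50.4% of all genes. Among other pore-forming genes, Scn7a, Scn9a, Scn10a and Scn11a were measured, and the largest differences were -0.03 (Scn11a), 0.02 (Scn10a) and -0.02 (Scn9a). All 4 probe sets averaged 3.00 to 4.05 and Unc79 averaged 2.91, under the median probe set mean of 4.98, so little change could be seen in them. The sodium leak channel gene Nalcn differed by 0.0084 and its partners Unc79 and Unc80 by 0.03 and -0.0064. At 18 months the unadjusted p was under 0.05 for 4 of the 53 genes, against 7.90% of all probe sets.

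The intracellular FGF homologous factors bind the tail of alpha subunits and shift their inactivation. Fgf11 was lower in all 3 aged Q92 mice than in the controls, by -0.38 (SE 0.10, adjusted p = 0.262), and 6.76% of all probe sets were lower without overlap. Fgf12 was higher in all 3, by 0.12 (SE 0.10, adjusted p = 0.837), against 7.02% of all probe sets. Fgf14 differed by -0.24 (SE 0.23, adjusted p = 0.871) and Fgf13 by 0.13 (SE 0.10, adjusted p = 0.816). Of 14 scaffold and matrix genes of the axon initial segment and node, 7 were lower, with a median of -0.03. The largest differences were in matrix proteoglycan and glycoprotein genes, -0.47 for Vcan (SE 0.12, adjusted p = 0.262), -0.23 for Bcan (SE 0.12, adjusted p = 0.688) and 0.21 for Tnr (SE 0.16, adjusted p = 0.815). Ank3, the ankyrin that anchors sodium channels at the initial segment, differed by -0.09 (adjusted p = 0.900).

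Beta subunits are cut by the secretases, and of 8 genes measured 4 were lower, with a median of 0.0014. The largest differences were -0.16 for Aph1a, 0.14 for Aph1b and 0.12 for Bace1, the beta-secretase (adjusted p from 0.742 to 0.888). Among 11 kinases, ligases and other regulators of alpha subunits, 6 were lower, and the largest differences were 0.87 for Gsk3b (SE 0.55), 0.72 for Camk2d (SE 0.36) and -0.47 for S100a10 (SE 0.20), with adjusted p from 0.587 to 0.759. Of 9 transcription and splicing regulators 3 were lower, and the largest differences were 0.52 for Rbfox2 (SE 0.25), 0.40 for Nova1 (SE 0.12) and 0.33 for Rcor1 (SE 0.21), with adjusted p from 0.391 to 0.749.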

How the data were processed

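Striatal RNA of 12 mice was measured on 1 array each. Values of the deposited table are on the log2 scale, made by the authors with RMA in affy, per the submitters' processing notes (versions not given). RMA corrects background, sets arrays to a common distribution and summarises probes, so differences are relative to the other genes of an array. No source used here says whether all 12 arrays entered RMA together. The authors' values (2.03 to 14.1) were used as deposited, and 64 control probe sets were left out of the tests. Arrays give no read depth, and 3 mice per group limit the precision (median SE of a difference 0.122).

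One limma 3.58.1 model (R 4.3.3), with 1 mean for each group, used all 12 arrays (8 residual and 4.50 prior degrees of freedom). It gave 5 contrasts, adjusted by the Benjamini-Hochberg method over 45037 probe sets, with 0.05 as the threshold. The code of the fit was run on simulated data with planted differences, with noise drawn independently for each probe set and equally wide in every group. That run does not cover unequal spread, such as that of Scn4b in aged Q92 mice. By the array's gene table, 34945 probe sets had a single gene, 932 had more, and 9160 were unnamed. Gene names and neighbours came from RefSeq (GRCm38.p6), with 34754 probe sets matched by gene identifier, and upstream sequences from RefSeq for 5 of the 7 members. Scn3b and Scn3a had none there.

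The members, gene lists, contrasts and alternatives were chosen with earlier results of these data known. Named genes are all members, Htt, the 3 genes of each pathway list with the largest absolute difference at 18 months, any that passed, and the 5 genes most like Scn4b by each measure. Scn7a, Fgf12, Nalcn's partners, Ank3, Ryr1 and the marker genes named with their values were added for description. Alternatives were array weights, a robust prior with an intensity trend, quantile normalisation, equal array medians, a filter on dim probe sets (mean in the lowest 40%), covariates (sex, 18S control signal, cortical and thalamic markers, age in days), only the arrays compared, leaving out single arrays or the 2 of lowest correlation, and 1 row per gene.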

Additional observations from a re-analysis of the deposited data

Results flagged for a closer look

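A signal outside the tested probe sets stood above its level in the controls. The mean of the 18S ribosomal RNA control probe sets was 6.82 ± 0.80 (SD, n = 3) in Q92 mice at 18 months and lay above every wild-type mouse of that age (5.87 ± 0.10, n = 3). The groups overlapped at 3 months, at 7.22 ± 1.1997 in Q92 and 6.58 ± 1.05 in wild-type mice. The part of this difference in the values of Scn4b was not tested beyond the covariate reported above.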

How the results depend on the processing

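The decrease of Scn4b with age in Q92 mice kept its direction in 25 of 25 alternatives and its call in 21. It was -1.95 (adjusted p = 0.0543) with age in days as a covariate and -1.91 (0.0651) with only the arrays compared, both without a call, and -2.19 to -1.60 without single arrays. The 18-month genotype difference kept its direction in 25 of 25, and its adjusted p rose to 0.493 with age in days as a covariate (-1.55). It became a call with quantile normalisation (-1.49), array weights (-1.33), cortical and thalamic covariates (-1.67), without the 2 arrays of lowest correlation (-1.16) and with 1 row per gene (-1.48 for each), and it ran from -1.76 to -1.16 without single arrays. In these 6 settings 1 member was called at 18 months, in place of 0, and without single arrays 0 to 1. In the age comparison in Q92 mice 0 members were called in the 2 settings above, and 0 to 1 without single arrays. The 3-month difference of Scn4b turned to 0.028 with array weights, 0.13 with the 18S covariate and 0.084 without the 2 arrays, and was -0.15 to 0.084 without single arrays.

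The uncalled differences of the other members near 0 changed sign in places. With array weights Scn3b at 3 months was at 0.0035 and Scn8a with age in Q92 at 0.024. With cortical and thalamic covariates Scn1a (0.15) and Scn8a (-0.056) turned at 18 months, and Scn2a and Scn8a (-0.038 each) in the change with age. Without the 2 arrays Scn3b (0.0096) and Scn8a (0.0064) turned at 3 months, Scn3a (0.11) in the change with age, Scn1a (-0.063) with age in wild type, and Scn1a (-0.0145), Scn2a (0.062) and Scn8a (0.11) with age in Q92. With the mean of all probe sets Scn1a was at 0.37 at 18 months, 0.11 at 3 months and -0.11 with age in wild type, Scn2b at -0.018 and Scn3b at 0.0365 at 3 months, Scn3a at 0.030 in the change with age and Scn8a at 0.020 with age in Q92. With age in days Scn1a (0.13) and Scn3a (0.22) turned at 18 months, Scn3a (0.28) in the change with age, Scn1a (-0.0031) with age in wild type and Scn8a (0.016) with age in Q92. With sex Scn2b was at -0.019 at 3 months.

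Without single arrays the 18-month range was -0.27 to 0.24 for Scn1a and -0.094 to 0.21 for Scn8a. At 3 months it was -0.17 to 0.20 for Scn2b, -0.12 to 0.034 for Scn3b, -0.033 to 0.13 for Scn2a, -0.17 to 0.031 for Scn3a and -0.092 to 0.013 for Scn8a. In the change with age it was -0.082 to 0.42 for Scn1a, -0.016 to 0.25 for Scn2a, -0.27 to 0.040 for Scn3a and -0.069 to 0.24 for Scn8a. With age in wild type it was -0.025 to 0.10 for Scn3b, -0.063 to 0.23 for Scn1a and -0.20 to 0.025 for Scn8a, and in Q92 -0.0145 to 0.49 for Scn1a, -0.20 to 0.062 for Scn2a and -0.13 to 0.11 for Scn8a.

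The number of probe sets called over the whole array moved more. At 18 months it was 24, and 45 with the intensity trend, 56 with array weights, 8 with 18S, 396 with cortical and thalamic covariates, 3 with age in days, 11 with only the arrays compared, 54 without the 2 arrays, 37 with the brightest probe set per gene and 9 to 36 without single arrays. At 3 months it was 5, and 3 with cortical and thalamic covariates, without the 2 arrays or with the brightest probe set, 1 with only the arrays compared and 1 to 5 without single arrays. For the change with age it was 0, and 3 with the intensity trend or the brightest probe set, 2 with array weights or the mean of probe sets, 10 with cortical and thalamic covariates and 0 to 3 without single arrays. With age in wild type it was 23, and 7 with quantile normalisation or only the arrays compared, 40 with array weights, 0 with sex, 14 with 18S, 12 with cortical and thalamic covariates, 2 with age in days, 15 with the mean of probe sets and 0 to 56 without single arrays. With age in Q92 it was 93, and 213 with 18S, 12 with age in days, 29 with only the arrays compared, 31 without the 2 arrays and 7 to 101 without single arrays. The cause of these changes was not tested. No paired analysis was run, as the labels pair no mice. Some mice of both genotypes share an age in days, which was fitted as a linear covariate and not as a block.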
